A study of Drosophila melanogaster with 33 samples.

Results

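The mitochondrial ribosomal protein genes of Drosophila melanogaster were taken as every gene in the count tables whose symbol starts with mRpL or mRpS. There were 73 of them among 16727 genes, 47 named for the large subunit and 26 for the small subunit. Both tko and bonsai also encode small subunit proteins of this ribosome but carry other names, so they were kept outside the 73 and are given beside them.

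Gene counts came from 12 libraries of poly(A)-selected RNA, with 3 in each of 4 groups. Atx2 RNAi brains (elav-Gal4, UAS-Atx2-RNAi, tub-Gal80ts) were compared with Gal4 control brains; elav-Gal4 drives expression in neurons, and the temperature-sensitive Gal80 keeps Gal4 off until adulthood. The study's crosses were reared at 18 degrees C, and 1-day-old flies were moved to 29 degrees C for 5 days. RNA of 10 to 12 brains was pooled in each library, so each library averages over animals and over all cells of the brain, including glia, in which elav-Gal4 is not meant to act. S2 cells, an embryonic line with features of blood cells, were transfected with double-stranded RNA (dsRNA) against Atx2 or, as mock, against GFP, and each such group is 1 cell line rather than separate animals. TRIBE lists, which record adenosines edited by an Atx2 protein fused to the catalytic domain of the editing enzyme ADAR (ADARcd), came from 12 further brain libraries, 2 for each of 6 forms: ΔLsm, ΔLsmAD, ΔmIDR and ΔcIDR, each lacking the named domain or disordered region, Lsm+LsmAD, and Atx2 WT. These forms were expressed from a UAS transgene with the same elav-Gal4 and Gal80 system. Nothing in the labels says that replicate libraries came from separate cultures or crosses, so p-values measure the spread between these libraries only.

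Mitochondria make a small set of respiratory chain and ATP synthase subunits on their own ribosomes. The ribosomal RNAs come from the mitochondrial genome, whereas every ribosomal protein is encoded in the nucleus, made in the cytoplasm and imported. Some of these proteins descend from bacterial ribosomal proteins and others are found only in mitochondria. Atx2 is an RNA-binding protein that acts on the stability and translation of mRNAs and takes part in RNA granule assembly.

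The targeted gene was examined first. Atx2 was at 201, 252 and 264 CPM (gene counts relative to library size, with TMM scaling factors) in Atx2 RNAi brains, against 287, 302 and 316 CPM in Gal4 control brains. Every RNAi library lay below every control library, but the log2 fold change of -0.34 (SE 0.12) did not pass the threshold (edgeR quasi-likelihood test with Benjamini-Hochberg adjustment, adjusted p = 0.0584). In S2 cells the libraries labelled Atx2 RNAi held 1002, 686 and 841 CPM of Atx2, against 228, 227 and 232 CPM in mock S2 cells. The Atx2 count in S2 cells therefore goes against the label, as a log2 fold change of 1.88 was fitted with SE 0.09 (edgeR, adjusted p = 5.3e-11). Reads from transfected Atx2 dsRNA and reads from Atx2 mRNA cannot be told apart in these gene counts, so the count cannot serve as a check of the S2 labels. A protein blot in the study, not analysed here, described less Atx2 protein after dsRNA treatment of S2 cells, the direction that the label gives. Directions for S2 cells below follow the labels, and where a result joins brain and S2 cells its value with the S2 labels turned is also given, an alternative chosen after seeing the data.

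Depth was between 11169973 and 16108727 gene counts per library. Gal4 control replicate 1 stood apart with 24.8% of its reads in no annotated feature. In Atx2 RNAi brains the summed CPM of 8 fat body markers was between 11050 and 23710, against 1252 to 2233 in Gal4 control brains. The 7 hemocyte markers summed to between 1215 and 1577 CPM in Atx2 RNAi brains and between 493 and 586 CPM in Gal4 control brains. Neuron markers ran the other way, with 12020 to 13940 CPM over 10 genes in Atx2 RNAi brains and 17960 to 21640 CPM in Gal4 control brains, and so did 8 glia markers, with 4431 to 5420 CPM and 6542 to 7795 CPM. At adjusted p under 0.05 (edgeR), 6 of 8 fat body markers were higher and 1 was lower in Atx2 RNAi brains, 4 of 6 tested hemocyte markers were higher, 6 of 10 neuron markers were lower, and 5 of 8 glia markers were lower and 1 was higher. All 5 tested muscle markers were lower, and 2 of 7 photoreceptor markers were higher. None of these markers was at 0 in a brain group. In S2 cells, 5 of 6 tested hemocyte markers were higher in the libraries labelled Atx2 RNAi (1369 to 1418 CPM summed, against 1254 to 1273 CPM in mock), and Lsp2 was at 0 in both groups.

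The 73 genes are short and compact. Their merged exons had a median length of 783 bases, against 2190 bases for the 9095 genes tested in brain that were matched to the annotation. Their annotated 3′UTRs, merged over transcripts, had a median of 65 bases, against 334 bases for the 8782 tested genes with one. The genes are spread over the chromosome arms, with 12 on 2L, 12 on 2R, 17 on 3L, 21 on 3R and 11 on X. Exons of 42 members overlap an exon on the opposite strand, which the strand-aware counting separates. The exons of mRpL53 lie wholly within those of CG33155 on the same strand, and mRpL53 had 0 counts in all 12 libraries, so 72 of the 73 genes passed the filter on low counts and were tested. The exons of mRpL13 overlap CG10602 on the same strand over 35.2% of their length, and its counts are uncertain to that degree.

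Levels were compared between genes as CPM per kilobase of merged exon, scaled over all 12 libraries. On this measure the members formed a narrow band a little above the middle of the genes tested. Exons were merged over transcripts, and levels by another length were not computed. Their median was 24.3 CPM per kb in Gal4 control brains, where the median of all genes tested was 14.6, and 31.4 CPM per kb in mock S2 cells, where it was 19.4. The members ran from 10.4 to 67.95 CPM per kb in Gal4 control brains and from 13.04 to 83.8 CPM per kb in mock S2 cells, a range of 6.57-fold and 6.43-fold. Cytoplasmic ribosomal protein genes were far higher, with a median level of 339.6 CPM per kb over 83 genes in Gal4 control brains and 1455 CPM per kb over 84 genes in mock S2 cells.

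The highest member in Gal4 control brains was mRpS5, related to a bacterial protein at the mRNA entry of the small subunit, at 67.95 ± 11.7 CPM per kb (SD, n = 3), more than that SD above the next. It was followed by mRpL55 (53.7 ± 7.29), mRpL24 (51.5 ± 7.53), mRpL28 (46.3 ± 9.23) and mRpL30 (44.6 ± 2.69), whose levels lie within 1 SD of their neighbours in this order. The lowest were mRpL21 at 10.4 ± 0.19, mRpS18B at 11.2 ± 1.42, mRpS29 at 13.4 ± 0.93, mRpL46 at 14.1 ± 2.28 and mRpL40 at 14.8 ± 2.19 CPM per kb. Neighbours among these also differed by less than their spread, apart from mRpS18B and mRpS29.

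In mock S2 cells the order was led by mRpL45 at 83.8 ± 2.36 CPM per kb, a mitochondrion-specific protein that in mammals sits at the tunnel exit and contacts the inner membrane. The next were mRpL14 (79.2 ± 5.54), mRpL10 (78.6 ± 2.65), mRpL28 (71.2 ± 3.73) and mRpL12 (68.1 ± 4.78); the proteins named for L10 and L12 form the factor-binding stalk of the large subunit. The lowest in mock S2 cells were again mRpL21 (13.04 ± 0.77), then mRpL11 (15.3 ± 0.57), mRpS6 (17.2 ± 2.03), mRpL40 (18.7 ± 1.45) and mRpL13 (18.8 ± 2.09). Neighbours in both lists differed by less than the larger of their SDs, apart from mRpL10 and mRpL28 and apart from mRpL21 and mRpL11. Across the 72 members the order in brain and the order in S2 cells were related only in part (Spearman rho = 0.44, a description over genes that share the same libraries).

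**Figure D1:**
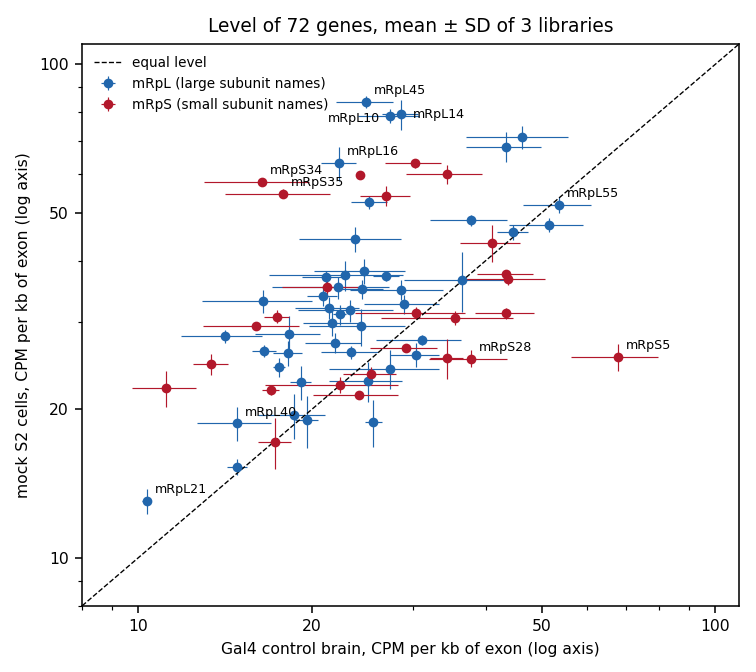
Level of each of the 72 tested members in Gal4 control brain (x axis) and mock S2 cells (y axis), in CPM per kb of exon on log axes; points are means and bars SDs of 3 libraries. Most points lie above the line of equal level, and mRpS5 lies farthest below it, at 67.95 CPM per kb in brain and 25.5 CPM per kb in S2 cells.

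Between the unperturbed groups, 39 of the 72 members were lower and 7 were higher in Gal4 control brain than in mock S2 cells at adjusted p under 0.05 (edgeR). Of all 9221 genes tested, 42.7% were lower and 45.5% higher. The members' median log2 fold change was -0.35, beside 0.07 over all genes tested. Brain and cell line were separate experiments, and source and experiment cannot be told apart. The level difference depends on scaling. With median-of-ratios factors 30 members were lower and 19 higher (median -0.14), beside 3580 and 4532 of 9221 genes (median 0.28). The share of members lower was then near that of all genes. DESeq2 called 31 lower and 13 higher (median -0.18), beside 3670 and 5387 of 14018 genes (median 0.91). With upper-quartile factors 55 were lower and 1 was higher (median -0.78), beside 4681 and 3629 of 9221 genes (median -0.36). With library size alone 64 members were lower and 1 was higher, beside 5023 and 3369 of 9221 genes. The median of all genes then moved to -0.58 while that of the members moved to -0.997.

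The lower members were led by mRpS34, mRpL45, mRpS35, mRpL10 and mRpL16. The mitochondrion-specific mRpS34 was at 14.9, 20.3 and 14.0 CPM per kb in Gal4 control brains, against 58.5, 57.1 and 57.7 CPM per kb in mock S2 cells (log2 fold change -1.75, SE 0.15, adjusted p = 1.2e-05). For mRpL45 the levels were 22.0, 27.5 and 25.0 CPM per kb in Gal4 control brains, against 83.4, 81.6 and 86.3 in mock S2 cells (-1.70, SE 0.10). No library of one source reached the other for either gene. The log2 fold changes of mRpS35 (-1.55, SE 0.15), mRpL10 (-1.47, SE 0.09) and mRpL16 (-1.45, SE 0.09) were of like size.

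Among the higher members mRpS5 stood out, at 81.3, 63.2 and 59.3 CPM per kb in Gal4 control brains, against 25.0, 27.4 and 24.2 CPM per kb in mock S2 cells. Its log2 fold change was 1.46 with SE 0.12 (adjusted p = 1.1e-05), and the next was mRpS28 at 0.62 (SE 0.13). The others named were mRpS11 at 0.52, mRpL13 at 0.50 and mRpS18A at 0.48, and with library size alone mRpS28, mRpS11, mRpL13 and mRpS18A turned to -0.0318, -0.13, -0.16 and -0.17. Of the small subunit proteins with other names, tko (log2 fold change -0.996, SE 0.08) and bonsai (-0.70, SE 0.08) were both lower in Gal4 control brain.

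In brain, 25 of the 72 members rose in Atx2 RNAi and none fell at adjusted p under 0.05 (edgeR), beside 23.1% of 9197 genes higher and 18.6% lower. At an unadjusted p under 0.05 the members counted 33 higher and 0 lower, beside 2592 and 2146 of 9197 genes. With DESeq2 they counted 14 higher and 0 lower, beside 1797 and 2106 of 14178 genes. A positive log2 fold change was found for 64 of the 72, compared with 54.5% of all genes tested, and the members' median was 0.32 beside 0.06 over all genes. In the main fit the share of members called higher was 34.7%, above the background, and the share called lower was below it. With median-of-ratios factors 16 members were higher, beside 1895 of 9197 genes, a share near that of all genes. Under a replicate block 8 members were higher, beside 1641 of 9197 genes, a share below that of all genes. Fits without single libraries are given below. In a bulk library, fewer cells of a type and less RNA per cell cannot be told apart. The fat body and hemocyte markers given above rose in the same libraries, and their part in the members' rise was not tested.

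Summed over the 73 genes, members took 0.205%, 0.166% and 0.170% of gene counts in Atx2 RNAi brains, against 0.123%, 0.139% and 0.125% in Gal4 control brains. All 3 RNAi libraries lay above all 3 controls (exact permutation test, two-sided p = 0.1, the smallest that 3 against 3 can give). These shares carry no scaling factor. With library size alone the median log2 fold change in brain was 0.27 over all genes and 0.53 over the members. Replicate 1 of the RNAi group was the highest, with 70 of 72 members above the control mean, while replicates 2 and 3 had 56 and 59. No such count over all genes was made, so whether replicate 1 stands apart for the members alone is unknown. Taken gene by gene, 34 of the 72 members were higher in every RNAi library than in every control library, beside 32.3% of all genes tested, and no member was lower in every one, beside 25.4%.

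**Figure D2:**
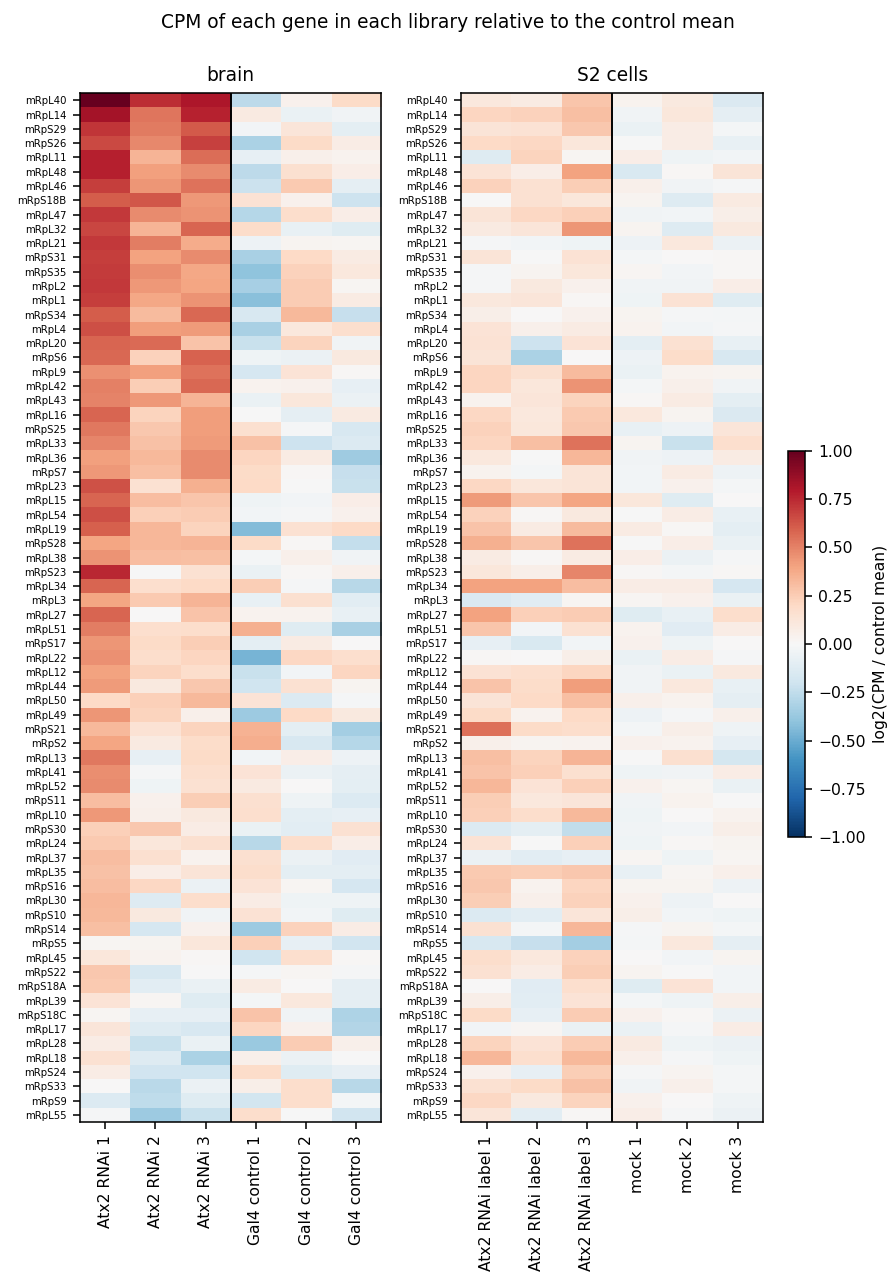
CPM of each of the 72 tested members in each library, as the log2 ratio to the mean of the Gal4 control or mock libraries (red above, blue below), with genes in the order of their brain log2 fold change. Red fills the Atx2 RNAi brain columns for most genes, most of all replicate 1, while the S2 columns labelled Atx2 RNAi are paler, with median log2 ratios between 0.09 and 0.22.

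The largest rise was that of mRpL40, a mitochondrion-specific large subunit protein. It was at 19.0, 14.7 and 15.5 CPM in Atx2 RNAi brains, against 7.37, 9.10 and 10.1 CPM in Gal4 control brains (log2 fold change 0.89, SE 0.17, adjusted p = 0.0057), or 1.85-fold. The groups did not overlap, and replicate 1 was the highest RNAi library. For mRpL14, whose bacterial relative sits at the interface between the subunits, the values were 27.6, 22.5 and 26.5 CPM in Atx2 RNAi brains, against 16.5, 14.9 and 15.2 CPM in Gal4 control brains (0.72, SE 0.12, adjusted p = 0.0040).

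The small subunit protein mRpS29 is the fly relative of the human GTP-binding protein DAP3. It was at 26.3, 23.0 and 24.6 CPM in Atx2 RNAi brains, against 15.7, 17.5 and 15 CPM in Gal4 control brains (0.62, SE 0.12, adjusted p = 0.0056). For mRpS26 the values were 23.1, 20.4 and 23.5 CPM in Atx2 RNAi brains, against 11.75, 16.7 and 15.4 CPM in Gal4 control brains (0.61, SE 0.15, adjusted p = 0.0167). The stalk base protein mRpL11 was at 15.6, 11.5 and 13.4 CPM in Atx2 RNAi brains, against 8.56, 9.40 and 9.30 CPM in Gal4 control brains (0.57, SE 0.15, adjusted p = 0.0204). In each of these 3 genes every RNAi library was above every control library. The lowest log2 fold change among the members, that of mRpL55, was -0.19 (SE 0.14), with 20.2, 15.9 and 17.5 CPM in Atx2 RNAi brains overlapping 23.0, 20.4 and 17.8 CPM in Gal4 control brains.

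Large subunit names made up 17 of 46 tested genes called higher and small subunit names 8 of 26, with median log2 fold changes of 0.34 and 0.23. Both genes of the small subunit with other names rose as well. The ribosomal protein gene tko, known for its bang-sensitive mutant, was at 33.1, 23.1 and 25.6 CPM in Atx2 RNAi brains, against 17.7, 19.1 and 19.8 CPM in Gal4 control brains (0.53, SE 0.15, adjusted p = 0.0263). For bonsai the values were 30.9, 24.5 and 29.6 CPM in Atx2 RNAi brains, against 20.3, 21.6 and 21.7 CPM in Gal4 control brains (0.42, SE 0.12, adjusted p = 0.0275).

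The count of 25 moves with single libraries. It was 5 without Atx2 RNAi replicate 1 (beside 1388 of 9354 genes), 15 without replicate 2 (1547 of 9356) and 7 without replicate 3 (1443 of 9385). It was 6 without Gal4 control replicate 3 (1656 of 9422), 19 without replicate 2 (1779 of 9403) and 26 without replicate 1 (2154 of 9376). Leaving out replicates 1, 2 or 3 of both groups gave 13 (1889 of 9243), 6 (1157 of 9260) and 1 (853 of 9308). The member share was below that of all genes without Atx2 RNAi replicate 1 or 3 and without Gal4 control replicate 3. It was also below without replicate 1, 2 or 3 of both groups. No member was called lower in any of these fits. Over all genes the lower calls ran from 478 of 9308, without replicate 3 of both groups, to 1816 of 9376, without Gal4 control replicate 1. The members' median log2 fold change stayed between 0.21 and 0.38 when a library or a replicate number was left out, beside 0.04 to 0.07 over all genes. Scaling by library size alone gave 41 higher calls, beside 3119 of 9197 genes. The member median was then 0.53, with the median of all genes at 0.27.

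**Figure D3:**
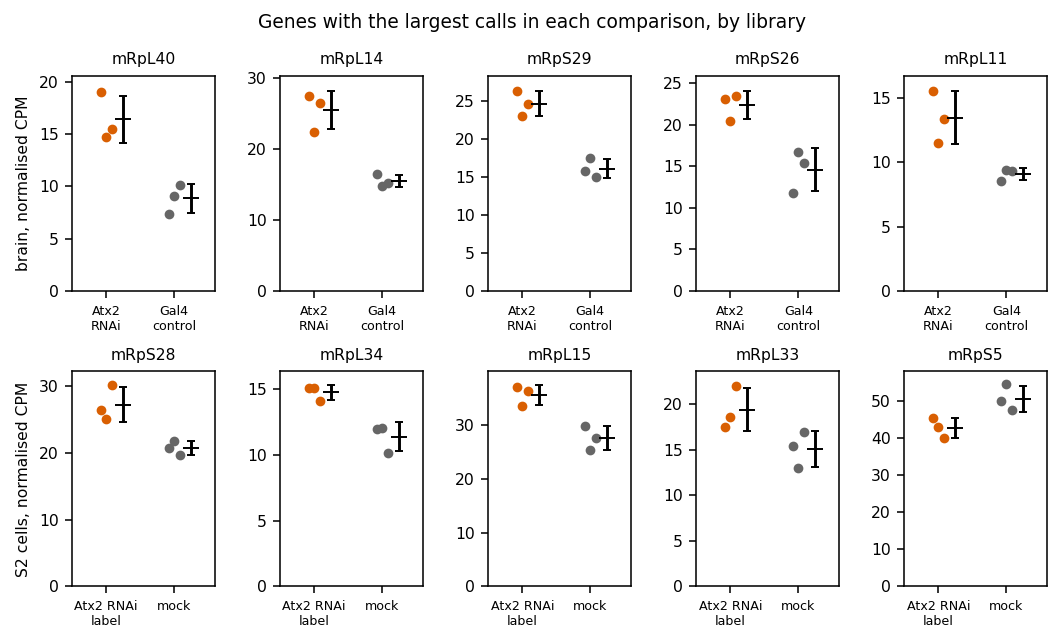
Normalised CPM by library of the 5 members with the largest brain log2 fold changes past the threshold (top row) and of 5 members called in S2 cells (bottom row); dots are single libraries, and the black mark and bar are the mean ± SD of 3. In brain every Atx2 RNAi dot is above every Gal4 control dot, and in S2 cells the same holds for 4 genes, whereas mRpS5 is lower in all 3 libraries labelled Atx2 RNAi.

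In S2 cells, 33 of the 72 members were higher and 2 were lower in the libraries labelled Atx2 RNAi than in mock (edgeR, adjusted p under 0.05), beside 14.4% of 7567 genes higher and 14.7% lower. The median log2 fold change of the members was 0.16, against 0.01 over all genes tested, and 63 of the 72 were positive, compared with 51.6% of all genes. The differences were small, and the largest, that of mRpS28, was 1.32-fold. Members took 0.300%, 0.286% and 0.308% of gene counts in the libraries labelled Atx2 RNAi, against 0.272%, 0.271% and 0.267% in mock (exact permutation test, two-sided p = 0.1, the smallest possible). Every library labelled Atx2 RNAi was above every mock library for 34 members, beside 21.8% of all genes, and below for 3, beside 22.0%.

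The largest S2 difference was that of mRpS28, at 26.4, 25.1 and 30.1 CPM in the libraries labelled Atx2 RNAi, against 20.7, 21.7 and 19.7 CPM in mock (0.40, SE 0.08, adjusted p = 0.0014). For mRpL34, the shortest member with 327 bases of exon, the values were 15.1, 15.1 and 14.1 CPM in the libraries labelled Atx2 RNAi, against 12, 12.01 and 10.1 CPM in mock (0.39, SE 0.10, adjusted p = 0.0065). Neither gene showed overlap between the groups. The large subunit gene mRpL15 was at 37.0, 33.5 and 36.3 CPM in the libraries labelled Atx2 RNAi, against 29.8, 25.4 and 27.6 CPM in mock (0.37, SE 0.07, adjusted p = 0.0009). The next were mRpL33 (0.35, SE 0.10, adjusted p = 0.0174) and mRpS21 (0.32, SE 0.10, adjusted p = 0.0165).

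The 2 members that were lower were mRpS5 and mRpS30. The member with the highest level in Gal4 control brains, mRpS5, was at 45.5, 43.2 and 40.1 CPM in the libraries labelled Atx2 RNAi, against 50.01, 54.6 and 47.6 CPM in mock (-0.24, SE 0.06, adjusted p = 0.0088). For mRpS30, which in mammals is found in the large subunit in spite of its name, the values were 121.0, 124.1 and 112.3 CPM in the libraries labelled Atx2 RNAi, against 130.0, 130.4 and 138.7 CPM in mock (-0.16, SE 0.05, adjusted p = 0.0126). In both genes every library labelled Atx2 RNAi lay below every mock library. Both tko (0.26, SE 0.05, adjusted p = 0.0015) and bonsai (0.21, SE 0.06, adjusted p = 0.0091) were higher.

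These S2 calls depended on the fit. In a fit of all 4 groups, no member was called in either direction, and 8 of 9771 genes were higher and 1 lower. That fit shares its estimate of the spread with the brain libraries and also changes the scaling and the genes tested. Which of these removed the calls was not tested. DESeq2 called 12 members higher and 2 lower, beside 618 and 805 of 11989 genes. The higher calls numbered 18, 22 and 19 without mock replicates 1, 2 and 3 (beside 768 of 7647, 827 of 7638 and 788 of 7636 genes). They numbered 18, 36 and 21 without replicates 1, 2 and 3 labelled Atx2 RNAi (797 of 7641, 1152 of 7642 and 959 of 7651). Without replicates 1, 2 and 3 of both groups they numbered 6, 25 and 19 (327 of 7603, 887 of 7583 and 918 of 7595). With DESeq2 and in each fit without a library or replicate, the share of members higher was above that of all genes. The lower calls numbered 1 without mock replicate 2 (beside 819 of 7638 genes) or mock replicate 3 (772 of 7636). They also numbered 1 without replicate 1 (340 of 7603) or replicate 2 of both groups (885 of 7583). In the other fits without a library or replicate they numbered 2, beside 777 of 7647 to 1190 of 7642 genes.

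Members called higher in both comparisons numbered 10: mRpL15, mRpL42, mRpL14, mRpL9, mRpL46, mRpL16, mRpS25, mRpL47, mRpS29 and mRpS26. They were 13.9% of the 72 members, beside 5.57% of the 7019 genes tested in both. As a share of each list they were 40% of the members called higher in brain and 30.3% of those called higher in S2 cells, beside 23.9% and 38.1% of such calls over all genes. With the S2 labels turned no member was called higher in both, beside 2.25% of genes. By the smaller of the 2 log2 fold changes mRpL15 came first, with 0.39 in brain and 0.37 in S2 cells, followed by mRpL42 with 0.45 and 0.26 and by mRpL14 with 0.72 and 0.25. Both log2 fold changes were positive for 56 members, both were negative for 1, and 15 had opposite signs. Across the 72 members the 2 log2 fold changes were nearly unrelated in size (Pearson r = 0.10 over genes, which are not independent replicates).

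**Figure D4:**
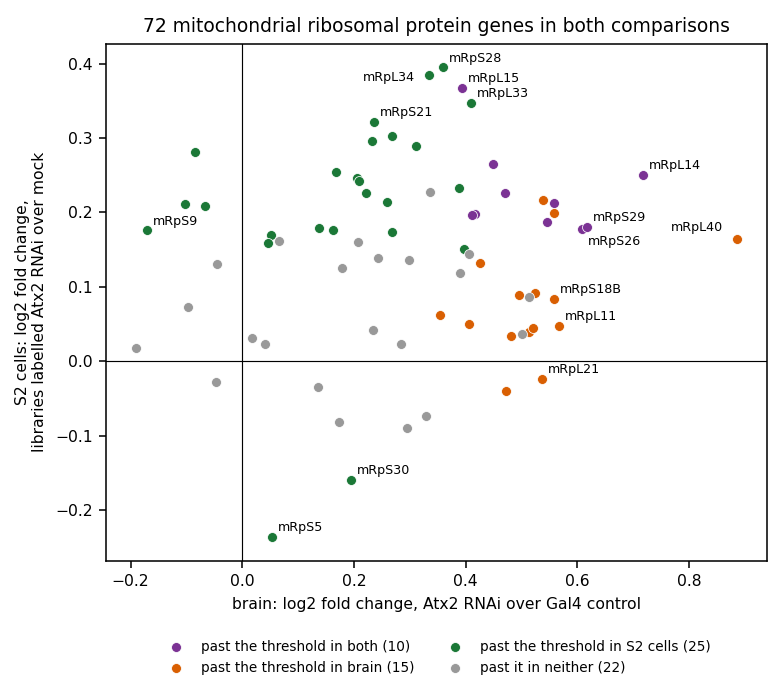
Log2 fold change of each of the 72 tested members in brain (x axis, Atx2 RNAi over Gal4 control) and in S2 cells (y axis, libraries labelled Atx2 RNAi over mock), coloured by the comparison in which adjusted p was under 0.05. Most points (56) lie in the upper right, and the 10 members past the threshold in both are spread along the brain axis between 0.39 and 0.72.

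Whether the response differed between brain and S2 cells was tested directly, as an interaction over all 12 libraries. For 8 members the log2 response was higher in brain and for 1 it was lower (edgeR, adjusted p under 0.05), beside 16.6% and 8.84% of 9771 genes tested, so the member shares do not exceed the background. The 5 with the largest positive difference were mRpL40 at 0.73 (SE 0.19, adjusted p = 0.0136), mRpL21 at 0.56 (SE 0.13), mRpS18B at 0.47 (SE 0.16), mRpL14 at 0.47 (SE 0.12) and mRpS29 at 0.44 (SE 0.11). The sole member with a lower response in brain was mRpS9 at -0.34 (SE 0.11, adjusted p = 0.0403). In Atx2 RNAi brains mRpS9 was at 42.7, 39.3 and 43.1 CPM, overlapping 41.3, 53.0 and 46.3 CPM in Gal4 control brains, whereas the S2 libraries labelled Atx2 RNAi were at 66.1, 61.3 and 67.0 CPM, all above 59.0, 57.6 and 55.7 CPM in mock. With the S2 labels turned, 33 members were higher and none lower in brain by edgeR, beside 1785 and 1268 of the 9771 genes. The order then began with mRpL40 at 0.998 (SE 0.19), mRpL14 at 0.92 (SE 0.12) and mRpS29 at 0.75 (SE 0.11), and mRpS9 was at -0.04 (SE 0.11, adjusted p = 0.84). DESeq2, with the labels as given, found 3 higher and 2 lower, beside 1349 and 1471 of 14641 genes. The higher count was 14 without Gal4 control replicate 2, beside 1608 of 9924 genes. It was 4 without S2 replicate 1 labelled Atx2 RNAi (1243 of 10015). Without Atx2 RNAi brain replicate 1 (1487 of 9920) or any other S2 library it was 5. It was 4, 1 and 2 without replicates 1, 2 and 3 of all groups (1364 of 9829, 674 of 9825 and 659 of 9837). Of these higher counts only the 14 was a larger share than that of all genes. The lower count was 1 without Atx2 RNAi brain replicate 1 (beside 764 of 9920 genes) or Gal4 control replicate 3 (849 of 9945). It was 2 without Gal4 control replicate 1 (1033 of 9945) or without replicate 1 of all groups (620 of 9829). In the other fits of this kind it was 0, beside 257 of 9825 to 893 of 9924 genes.

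The wider machinery of mitochondrial gene expression was described by its counts, to be read against the 23.1% of all genes called higher in brain and the 14.4% in S2 cells. Of 8 tested mitochondrial translation factors, 2 (25%, near the background) rose in Atx2 RNAi brains, namely EF-G2, which recycles ribosomes (0.60, SE 0.14, adjusted p = 0.0111), and ico, the mitochondrial elongation factor G1 (0.38, SE 0.13, adjusted p = 0.0439). In S2 cells 2 were higher in the libraries labelled Atx2 RNAi, EF-G2 (0.22, SE 0.07) and the mitochondrial elongation factor EfTuM (0.12, SE 0.04). Mitochondrial tRNA synthetases, which charge the tRNAs used by this ribosome, were listed together with their relative Slimp. Of these 16 tested genes, 8 (50%) rose in brain, with a median log2 fold change of 0.36. Their largest were Slimp, a relative of seryl-tRNA synthetase (0.78, SE 0.19), and CG5660, the mitochondrial valyl-tRNA synthetase (0.62, SE 0.11). In S2 cells 1 of the 16 was called, the aspartyl-tRNA synthetase CG31739, which was lower (-0.13, SE 0.04), and the median was 0.01.

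Among 14 tested factors for mitochondrial transcription and RNA processing, 4 rose in brain (28.6%, near the background), led by scu (1.10, SE 0.16) and CG15896 (1.10, SE 0.16), which encode subunits of mitochondrial RNase P. In S2 cells 1 of the 14 was higher, scu (0.15, SE 0.05). The mRNAs of the mitochondrial genome were not analysed here.

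Cytoplasmic ribosomal protein genes and subunits of the respiratory chain and ATP synthase (OXPHOS) framed these values. In brain, 76 of 84 tested cytoplasmic ribosomal protein genes rose, with a median log2 fold change of 0.93, above the 0.32 of the mitochondrial set. Of 62 tested OXPHOS subunit genes 2 rose and 1 fell in brain, and their median was -0.04. In S2 cells the order was different, with 42 of 60 OXPHOS subunit genes higher in the libraries labelled Atx2 RNAi (median 0.19), 67 of 85 cytoplasmic ribosomal protein genes higher (median 0.15) and the mitochondrial ribosomal protein genes between them at 0.16. No test of one set against another was made.

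Taken over all forms, edit sites were listed for about the same share of members as of all genes tested. A position is listed where at least 20 reads covered it and at least 15% of them were edited relative to control brains. The lists give no read number, so the depth behind each percent is unknown, and a position missing from a list may have been too thinly covered or edited below 15%. Across all 12 lists, 14 positions in 13 member genes appeared at least once, of 1984 positions in all. At least 1 ΔLsm library listed 13 of the 14 member positions, beside 1346 of all 1984. Of the 72 members tested in brain, 12 (16.7%) had a listed position in at least 1 library, beside 14.8% of the 9197 genes tested, and 4 (5.56%) had one listed in both libraries of a form, beside 6.05%.

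In ΔLsm, 4 member positions were listed in both libraries, of 478 such positions. By gene, these 4 are 5.56% of the members tested, beside 4.13% of all genes tested for ΔLsm. In Atx2 WT no member position was listed in both libraries, of 312, and 2.69% of the genes tested had one. The only member position in Atx2 WT was that of mRpS10, at 16.4% in replicate 2. By gene, at least 1 library of ΔLsm listed 11 of the 72 members (beside 10.7% of genes tested), ΔLsmAD listed 3 (5.48%), ΔmIDR 1 (4.93%), ΔcIDR 0 (1.4%), Lsm+LsmAD 1 (1.23%) and Atx2 WT 1 (5.35%). In both libraries ΔLsmAD listed 0 (1.85%), ΔmIDR 0 (1.72%), ΔcIDR 0 (0.424%) and Lsm+LsmAD 1 (0.37%). The ΔLsm lists were the longest, with 976 and 911 entries, against 529 and 481 for Atx2 WT, and the study states that the Atx2 WT libraries were sequenced without strand information, unlike those of the altered forms. With 2 libraries per form no exact test can pass 0.05, and none was made.

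The most widely listed member position was in mRpS35, a mitochondrion-specific small subunit gene, at chr3L:2781005 of build dm6 on the plus strand, within its 5′UTR. It was listed at 52.5% and 23.7% in Lsm+LsmAD, at 36.8% and 26% in ΔLsm, at 33.3% in replicate 2 of ΔLsmAD and at 36% in replicate 1 of ΔmIDR. It appeared in neither Atx2 WT library and in neither ΔcIDR library. Lsm+LsmAD and ΔLsm were the forms with it in both libraries, at means of 38.1% ± 20.4 and 31.4% ± 7.64 (SD, n = 2 each), which overlap. A second position in mRpS35, chr3L:2781887 in the coding sequence (CDS), was listed at 20.8% in ΔLsm replicate 1 alone.

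The other 3 positions listed in both ΔLsm libraries were all in coding sequence. In mRpL23, a protein of the tunnel exit in bacteria, chr3L:2373228 on the minus strand was listed at 31.7% and 21.4%. In mRpL46, chr3L:1777573 on the plus strand was listed at 28.6% and 22.2%, and in mRpS10, chr3R:15230296 on the plus strand at 24.5% and 21.3%. For all 3 the value of ΔLsm replicate 1 was the higher. At a threshold of 20% all 4 positions stayed listed in both libraries, and at 30% none did. Of all 478 such ΔLsm positions, 255 stayed at 20% and 90 at 30%.

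The remaining positions were listed in a single library of a form, at 15% to 21.7%. In ΔLsm these were mRpL48 (chr2L:1711167), mRpL20 (chr3L:13017298), mRpS22 (chr3R:27917588) and mRpS18C (chr3R:30424347) in replicate 1, and mRpS29 (chr2R:22419242), mRpL17 (chr3L:265490), mRpL36 (chr3L:8124653) and mRpL53 (chr2R:13954690) in replicate 2. The position in mRpL48 was also listed in ΔLsmAD replicate 2, at 16.7%, as was mRpL39 (chr3L:14999548), at 16.7%. The mRpL53 position is listed under CG33155 as well; it falls in an mRpL53 intron and in exons of CG33155 and, on the opposite strand, of AGO1, so its gene is uncertain. In bonsai, chr2R:22638530 in the coding sequence was listed at 19.0% and 25.4% in the ΔLsm libraries.

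**Figure D5:**
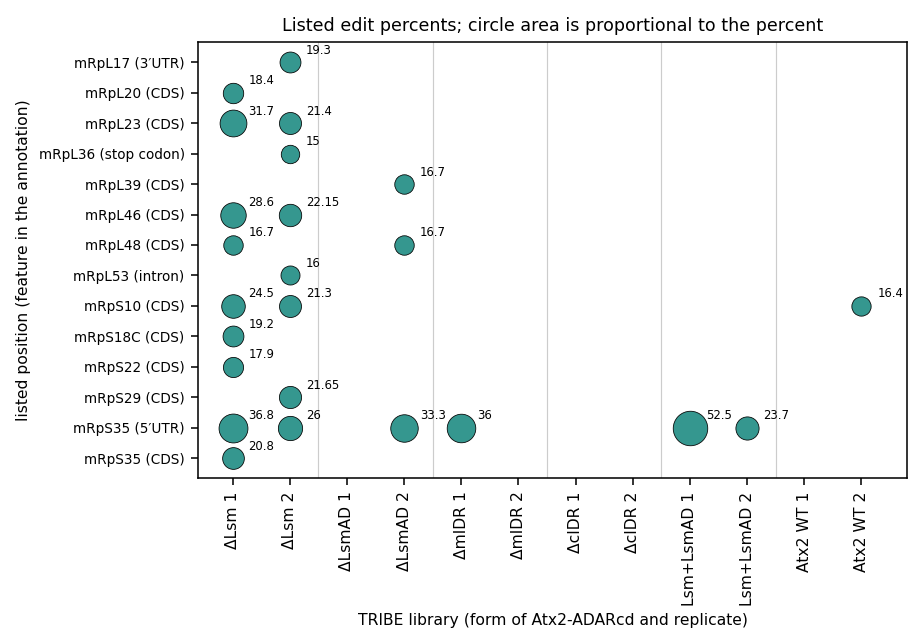
Edit percent of the 14 listed member positions (rows, with the annotated feature) in each TRIBE library (columns); circle area is proportional to the percent, and an empty cell means that the position was not listed. The first 2 columns, ΔLsm, hold 13 of the 14 positions, beside 1346 of all 1984 listed positions. The mRpS35 5′UTR position alone reaches Lsm+LsmAD, at 52.5% and 23.7%.

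By feature, 10 of the 14 member positions were in coding sequence (71.4%), 1 was in a 3′UTR, 1 in a 5′UTR, 1 in a stop codon and 1 in an intron. Of all 1984 listed positions 38.4% were in coding sequence and 49.0% in 3′UTRs. The members' 3′UTRs are short, as given above, and the share was not tested against length. The lone 3′UTR position was that of mRpL17, listed at 19.3%.

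Of the 13 genes with a listed position, 12 were tested for the response to RNAi. In brain 5 of these rose (mRpL20, mRpL46, mRpL48, mRpS29 and mRpS35), or 41.7%, beside 34.7% of all members and 23.1% of all genes tested. Their median log2 fold change was 0.40, beside 0.32 for all members tested. In S2 cells 4 were higher in the libraries labelled Atx2 RNAi (mRpL23, mRpL46, mRpS22 and mRpS29), or 33.3%, beside 45.8% of all members and 14.4% of all genes, and their median was 0.14, beside 0.16. For mRpS35 the values in brain were 27.7, 23.5 and 22.3 CPM in Atx2 RNAi, against 12.9, 19.9 and 18.3 CPM in Gal4 control, with log2 fold change 0.52 (SE 0.18) and an adjusted p of 0.04998 just under the threshold (edgeR). Of the 3 other genes with a position in both ΔLsm libraries, mRpL46 had a log2 fold change of 0.56 in brain (SE 0.16, adjusted p = 0.0256), mRpL23 had 0.40 (SE 0.16, adjusted p = 0.0847) and mRpS10 had 0.14 (SE 0.14, adjusted p = 0.45).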

How the data were processed

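RNA-seq counts per gene were made by the authors with STAR 2.5.3a on dm6 and HTSeq, using strand, and deposited without normalization. The percent values of the TRIBE lists were made by the authors with TopHat2 on dm6 (at least 20 reads and 15% edited). Members and gene lists were chosen with earlier results of these data known. Of 33 samples, 9 had no file used here and were not analysed. All genes were fitted by the quasi-likelihood test of edgeR 4.0.16 (R 4.3.3), after filterByExpr with its minimum of 10 counts and TMM scaling, with Benjamini-Hochberg adjustment, each comparison with its own groups and the brain minus S2 difference over all 12 libraries; the edgeR step was tested on simulated data. SE is the log2 fold change divided by the root of its F value. Alternatives were DESeq2 1.42.0, 3 other scalings, 2 other filters, a fit of all 4 groups, a replicate block, 2 other thresholds, fits without each replicate or library and, chosen after seeing the data, the S2 labels turned. Gene positions and lengths came from Ensembl release 115 (FlyBase 6.54, the coordinates of dm6), which matched 16508 of 16727 genes. All replicate pairs differed by more than sampling noise. Genes were named by rule: the 5 largest calls in each direction per comparison, the 5 highest and 5 lowest levels, members called in both RNAi comparisons and every member with an edit site.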

Additional observations from a re-analysis of the deposited data

Results flagged for a closer look

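The response to Atx2 RNAi differed between brain and S2 cells, by the test of the difference itself, for 9 of the 72 members and for Atx2 (edgeR, adjusted p under 0.05). The log2 difference, brain minus S2, was 0.73 for mRpL40 (0.89 in brain and 0.16 in S2 cells), 0.56 for mRpL21 (0.54 and -0.02), 0.47 for mRpS18B (0.56 and 0.08), 0.47 for mRpL14 (0.72 and 0.25) and 0.44 for mRpS29 (0.62 and 0.18). It was 0.40 for mRpL3 (0.33 and -0.07), 0.38 for mRpS17 (0.30 and -0.09) and 0.29 for mRpL38 (0.35 and 0.06). For mRpS9 it was -0.34 (-0.17 and 0.18). Atx2 gave -2.22 (-0.34 and 1.88), since its counts were lower in Atx2 RNAi brains and higher in the S2 libraries labelled Atx2 RNAi than in their controls. These values follow the S2 labels, which the Atx2 counts do not check. With the S2 labels turned, mRpL40, mRpL21, mRpS18B, mRpL14, mRpS29 and mRpL38 stayed past the threshold (0.998, 0.47, 0.60, 0.92, 0.75 and 0.37), whereas mRpL3 (0.21), mRpS17 (0.16) and mRpS9 (-0.04) did not pass it, and Atx2 was at 1.501. The shares of members with the labels as given, 8 higher and 1 lower of 72, stand beside 16.6% and 8.84% of all genes tested.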

How the results depend on the processing

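Of the single-gene log2 fold changes named, 886 alternatives were run for 50 pairs of gene and comparison, and 654 kept their direction and side of the threshold, 224 kept the direction but no longer passed, 4 newly passed and 4 turned sign. All 4 that turned were levels with library size alone (mRpS28 -0.0318, mRpS11 -0.13, mRpL13 -0.16, mRpS18A -0.17). In brain the 25 higher calls became 14 with DESeq2 (beside 1797 of 14178 genes) and 16 with median-of-ratios factors (1895 of 9197). They became 41 with library size alone (median 0.53, beside 3119 of 9197 genes) and 8 under a replicate block (1641 of 9197). Without a replicate or library they were between 1 and 26, given above with the counts over all genes. In S2 cells the 33 higher and 2 lower calls became 12 higher with DESeq2, beside 618 of 11989 genes. They became 0 and 0 with all 4 groups in 1 fit, beside 8 and 1 of 9771 genes. Without a replicate or library they were 6 to 36 higher and 1 to 2 lower, given above with the counts over all genes. For brain minus S2, the 8 higher and 1 lower became 3 and 2 with DESeq2 (beside 1349 and 1471 of 14641 genes). They became 2 and 2 with median-of-ratios factors (1182 and 1273 of 9771) and 25 and 0 with library size alone (2520 and 441 of 9771). No filter on low counts gave 5 and 0 (1524 and 635 of 14677), and the replicate block 2 and 0 (1217 and 537 of 9771). The S2 labels turned, chosen after seeing the data, gave 33 and 0 (1785 and 1268 of 9771). At adjusted p under 0.1 there were 18 higher (2060 of 9771), and at an unadjusted p under 0.05 there were 23 and 2 (2265 and 1383). Upper-quartile factors gave 0 lower (808 of 9771). Fits without a replicate or library gave 1 to 14 higher and 0 to 2 lower. Over all genes these fits gave 659 of 9837 to 1917 of 9945 higher and 257 of 9825 to 1033 of 9945 lower. For the level, the 7 higher became 13 with DESeq2 (median -0.18), beside 5387 of 14018 genes. With median-of-ratios factors they became 19 (-0.14), beside 4532 of 9221 genes. They became 1 with upper-quartile factors (-0.78), beside 3629 of 9221 genes. With library size alone there was 1 (64 lower, -0.997), beside 3369 of 9221 genes higher. Without a replicate or library 5 to 10 members were higher, beside 4082 of 9310 to 4385 of 9381 genes. In the same fits 32 to 41 members were lower, beside 3669 of 9331 to 4123 of 9381 genes. Member positions listed in both libraries of a form were 4 in the report, of 737 positions in all. They were 0 of 128 at a threshold of 30% and 14 of 1984 when 1 library sufficed. With 1 replicate alone they were 9 of 1440 for replicate 1 and 10 of 1421 for replicate 2. The cause of these shifts was not tested, except that fits without a library hold fewer samples.

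Replicate numbers are shared between groups, but samples with the same number did not deviate together (correlations of -0.13, -0.21 and -0.06 in brain and 0.05, -0.07 and -0.04 in S2 cells), so they were not treated as pairs. The replicate block left 30 members higher and 2 lower in S2 cells, beside 961 and 965 of 7567 genes. For the level it left 6 higher and 37 lower, beside 4166 and 3922 of 9221 genes. Summed over the 73 genes, brain libraries held between 13785 and 28595 counts, which limits the size of difference that a single member can show, and the depth behind the TRIBE percents is unknown.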
